A study of Mus musculus with 92 samples.

Results

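The genes described here are 8 interferon-induced antiviral effectors: Ifit1, Ifit2 and Ifit3, Rsad2 (viperin), Cmpk2, Mx1, Mx2 and Ifi44. They were taken from the table of normalized expression by symbol, 8 of 29956 named genes, with earlier results of these data known. The study made macrophages and microglia-like cells (MLC) from mouse ER-Hoxb8 progenitors, lines held immature by an estrogen-dependent Hoxb8, and sequenced the messenger RNA of 92 libraries in 25 groups. It asked how closely such cells resemble macrophages and microglia, what loss of Adar1 does to them, and whether baricitinib, an inhibitor of Janus kinases, acts on that effect.

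All mice and lines were of the FVB strain. BM progenitors and BM monocytes (3 libraries each) came fresh from wild-type marrow, and BMD macrophages (3) from wild-type marrow after 7 days in vitro. ER-Hoxb8 progenitors, cells at day 4 and macrophages at day 7 (3 each) came from ER-Hoxb8 cells of Cas9 heterozygous genotype, for which the paper describes independent lines. BMD MLC (6) and ER-Hoxb8 MLC (6) were recovered from Csf1r-/- brains into which marrow or ER-Hoxb8 cells had been injected, and their labels give the genotype of the cells as WT. Of the ER-Hoxb8 MLC libraries, 3 are named GFPHox and 3 WTHox. Microglia (9) came from uninjected wild-type mice. NTC cells carried a non-targeting guide and Adar1 KO cells a guide against Adar (sgRNA 1 or sgRNA 2), in Cas9 heterozygous ER-Hoxb8 cells. NTC and sgRNA 1 cells were sequenced as progenitors (3 each) and macrophages (3 each), and sgRNA 2 cells as progenitors (3) and macrophages (5). In a separate experiment, NTC and Adar1 KO (sgRNA 1) macrophages of the same Cas9 heterozygous background received baricitinib at 0, 0.0006, 0.016, 0.4 or 10 uM for 7 days, renewed at each media change. NTC had 3, 3, 4, 4 and 3 libraries at these doses and Adar1 KO 3, 3, 3, 3 and 4. The sample titles give the doses used here as names, while the treatment protocol gives the lower ones as 0.00064 and 0.16 uM, so the third dose is uncertain. Several features limit these models. The guide lines were sorted for the guide vector, and how many founder cells each stems from is not given in the sources used here. The wild-type marrow groups and the Cas9 lines differ in genotype, and the Csf1r-/- hosts lack microglia of their own. Ages of the brain donors and hosts are not given for single libraries. The labels do not say what a replicate was. The paper calls the replicates of the marrow cells, of the ER-Hoxb8 cells without a guide and of the cells from brain biological, and calls the cultures of the baricitinib experiment independently differentiated. Which line, culture or animal each library came from is not given in the sources used here.

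Interferon-stimulated genes are switched on when type I interferon binds its receptor and Janus kinases activate transcription factors that bind interferon-stimulated response elements. Their products act on different steps of a viral life cycle: IFIT proteins bind viral RNA or hold back its translation, viperin makes a chain-terminating nucleotide, and Mx proteins are dynamin-like GTPases that trap viral components. Adar1 edits adenosine in double-stranded RNA, and without it the cell's own RNA can activate the sensor MDA5 (Ifih1) and the interferon pathway, in macrophages and microglia as in other cells.

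Values are log2 CPM (counts scaled to the size of the library and TMM-normalized, with a small offset), as deposited. The libraries fall into 6 sets by their lowest value, the value of a gene at 0 counts, and values were compared only within a set. Set 1 held the marrow cells and the ER-Hoxb8 cells at days 0 and 4 (12 libraries), set 2 the BMD and ER-Hoxb8 macrophages and the cells from brain (27), and set 3 the NTC and sgRNA 1 cells (11). NTC macrophage replicate 2 was alone in set 4, so only replicates 1 and 3 entered comparisons. Set 5 held the sgRNA 2 cells (8), which therefore had no NTC control on their scale, and set 6 the baricitinib libraries (33). The lowest values were -4.34, -3.62, -3.43, -3.09, -3.56 and -2.78, which correspond to mean depths of 40.6, 24.5, 21.5, 17.1, 23.6 and 13.7 M (mega) counts if the prior count was 2. A value at the lowest level therefore says only that the gene was not detected at that depth, and log2 fold changes (log2FC) against libraries at or near it depend on the offset. Genes were compared with limma and called differentially expressed (DEG) where the p adjusted by Benjamini-Hochberg was below 0.05 and the log2FC was 2 or more up or down. Levels were not compared between genes.

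Some libraries stood apart from their group over all genes tested. Adar1 KO at 0.4 uM, replicate 2, lay 1.26 (root mean square log2 difference) from the mean of the others in its group and 0.88 from Adar1 KO at 0.016 uM. ER-Hoxb8 progenitor replicate 2 lay 0.66 from the day 4 cells and 1.56 from its own group. Progenitor markers (Kit, Cd34, Mpo, Elane) summed to 64.1, 28.5 and 2764 CPM in the ER-Hoxb8 progenitor libraries, against 6698 to 15622 CPM (median 13686) in BM progenitors. Macrophage markers summed to 7529.7, 7794 and 1219 CPM in those ER-Hoxb8 libraries and 185 to 306 CPM (median 262) in BM progenitors, so the first and second libraries labelled ER-Hoxb8 progenitors carried macrophage markers in place of progenitor markers. Microglia replicate 8 lay 2.73 from its group, with oligodendrocyte markers at 628 CPM against 14.1 to 55.7 in the other microglia and 4 of 4 lymphocyte and NK markers at 0. Counts of DEGs that rest on these libraries are given with and without them.

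Adar, the targeted gene, was read first. It was at 4.20, 3.42 and 4.28 in NTC progenitors, 4.36, 4.23 and 4.24 in sgRNA 1 progenitors and 4.35, 4.56 and 4.36 in sgRNA 2 progenitors. Macrophages had 5.73 and 5.67 with NTC (5.86 in the library of set 4), 6.96, 7.15 and 7.01 with sgRNA 1 and 7.02, 7.00, 7.02, 7.03 and 6.99 with sgRNA 2. An edited allele can still be transcribed, so these levels check no label, and no library labelled Adar1 KO had Adar at 0 CPM. Adar was higher in sgRNA 1 than in NTC macrophages without overlap, by a log2FC of 1.34 (SE 0.21, adjusted p = 0.000976), short of the fold needed for a DEG. In the baricitinib experiment Adar in NTC macrophages was at 5.12, 4.94 and 4.69 without drug, at 4.66, 5.04 and 4.81 with 0.0006 uM, at 4.31, 4.58, 4.40 and 4.34 with 0.016 uM, at 4.5, 4.22, 4.29 and 3.92 with 0.4 uM and at 3.70, 3.64 and 3.22 with 10 uM. In Adar1 KO macrophages Adar was at 7.42, 6.52 and 6.37 without drug, at 5.90, 5.94 and 6.21 with 0.0006 uM, at 6.25, 5.90 and 6.37 with 0.016 uM, at 4.12, 7.38 and 4.21 with 0.4 uM and at 1.55, 2.15, 2.91 and 2.03 with 10 uM. Without drug every Adar1 KO library was above every NTC library, and at 10 uM every one was below. The log2FC of Adar1 KO over NTC was 1.85 (SE 0.48, adjusted p = 0.0051) without drug and -1.36 (SE 0.45, adjusted p = 0.0146) at 10 uM. In the other groups Adar was at 5.36, 5.11 and 5.63 in BM progenitors, 6.32, 6.21 and 5.56 in BM monocytes, 4.69, 5.81 and 5.10 in ER-Hoxb8 progenitors and 5.69, 5.56 and 5.28 at day 4. It was at 5.72, 5.56 and 6.29 in BMD macrophages and 5.83, 5.97 and 4.37 in ER-Hoxb8 macrophages. Cells from brain had it between 3.24 and 5.74 (median 4.73) in BMD MLC, between 4.11 and 6.08 (median 5.19) in ER-Hoxb8 MLC and between 0.87 and 5.63 (median 3.43) in microglia, with overlap between all of these groups.

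The members lie in 4 regions of the mouse genome (positions in GRCm38.p6, an earlier build than the authors' GRCm39). Ifit2, Ifit3 and Ifit1 lie in that order on chr19:34550550-34650009, 99460 bases, with Ifit3b, a near copy of Ifit3, between Ifit3 and Ifit1. Rsad2 and Cmpk2 are neighbours on chromosome 12, 12665 bases apart and transcribed away from each other. Mx1 (chr16:97447035-97462906) and Mx2 (chr16:97536081-97560901) are also neighbours, and Ifi44 is on chromosome 3. Copies limit how reads can be assigned. Of the 31-base words in Ifit3 transcripts, 61.8% also occur in Ifit3b, so the level of Ifit3 is uncertain. For Ifit1 the share in any other gene was 10.5%, for Mx1 8.12%, for Mx2 7.96%, for Rsad2 0.531% and for Ifi44 0.24%, and Ifit2 and Cmpk2 shared none. RefSeq promoters (250 bases before to 50 after a start) were at hand for 6 of the 8 members, and Mx1 and Mx2 had no entry. They were searched for the core of the interferon-stimulated response element, GAAANNGAAA, on both strands (TTTCNNTTTC on the other). It occurred in 1131 of 32851 mouse promoters (3.44%) and 2 or more times in 74 (0.225%). Among the members it occurred 2 times in Ifit1 (104 and 85 bases upstream of the start), 2 times in Ifit3 (156 and 122) and 1 time in Rsad2 (120). The promoters of Ifit2, Cmpk2 and Ifi44 did not hold these letters. Because the members moved together in several comparisons, the promoters with a match are printed, with that of Ifit3b for comparison with Ifit3. They are chr19:34640639-34640938 (plus strand) for Ifit1, chr19:34583279-34583578 (plus strand) for Ifit3, chr19:34607707-34608006 (plus strand) for Ifit3b and chr12:26456403-26456702 (minus strand) for Rsad2, with the match in capitals.
Ifit1: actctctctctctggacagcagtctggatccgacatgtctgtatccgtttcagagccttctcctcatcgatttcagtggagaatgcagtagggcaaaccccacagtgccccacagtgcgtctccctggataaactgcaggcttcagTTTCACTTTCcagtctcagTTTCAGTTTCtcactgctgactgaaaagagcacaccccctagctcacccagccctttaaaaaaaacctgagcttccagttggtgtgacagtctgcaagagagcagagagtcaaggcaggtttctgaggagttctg
Ifit3: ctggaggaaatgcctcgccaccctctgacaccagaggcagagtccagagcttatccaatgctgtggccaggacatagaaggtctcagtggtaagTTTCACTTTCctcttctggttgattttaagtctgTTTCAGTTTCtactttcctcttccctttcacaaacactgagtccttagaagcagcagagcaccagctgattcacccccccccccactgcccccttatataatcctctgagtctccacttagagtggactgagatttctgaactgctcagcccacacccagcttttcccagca
Ifit3b: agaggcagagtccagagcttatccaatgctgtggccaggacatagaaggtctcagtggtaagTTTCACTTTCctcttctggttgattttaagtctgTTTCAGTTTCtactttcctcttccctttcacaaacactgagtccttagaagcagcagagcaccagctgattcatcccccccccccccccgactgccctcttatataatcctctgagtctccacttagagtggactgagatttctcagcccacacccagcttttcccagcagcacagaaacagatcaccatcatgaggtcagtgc
Rsad2: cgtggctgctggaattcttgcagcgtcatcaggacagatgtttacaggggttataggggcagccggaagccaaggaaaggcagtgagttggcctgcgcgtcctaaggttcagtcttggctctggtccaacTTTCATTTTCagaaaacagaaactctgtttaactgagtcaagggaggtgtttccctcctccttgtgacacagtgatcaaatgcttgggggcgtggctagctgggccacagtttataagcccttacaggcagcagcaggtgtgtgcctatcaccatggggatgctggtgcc

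The first question was what loss of Adar1 did to these genes in progenitors and in macrophages. The NTC progenitor libraries are named NTC2Prog1, NTC2Prog2 and NTC2Prog3 and the NTC macrophage libraries compared NTC-1 and NTC-3. Whether both stem from the same line is not given in the sources used here. With sgRNA 1, 8 of 8 members were DEGs in macrophages and higher than in NTC, where 4.02% of 11008 genes tested were DEGs. Their log2FC ran from 4.70 for Mx1 to 7.76 for Ifi44, with a median of 6.08 against 0.05 over all genes. In progenitors with the same guides 0 of 8 were DEGs by limma (0.254% of all genes) and 2 had an unadjusted p below 0.05. Of the 8 genes, 5 (Ifit3, Rsad2, Cmpk2, Mx2 and Ifi44) passed the filter of CPM above 1 in 3 libraries only through Adar1 KO macrophages, so for these the call could hardly fail and the count is a description. Ifit1, Ifit2 and Mx1 passed without those libraries. Bulk values cannot tell more responding cells from more RNA per cell.

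Among the IFIT genes, Ifit1, which binds RNA lacking the cap methylation of the host, was at -0.97, 0.20 and -0.12 in NTC progenitors and -0.78, -1.22 and -1.86 in sgRNA 1 progenitors. NTC macrophages had Ifit1 at 4.03 and 3.87 and sgRNA 1 macrophages at 10.54, 10.19 and 9.27. The macrophage groups were far apart, and in progenitors the groups overlapped. In macrophages this was 66.2-fold (log2FC 6.05, SE 0.43, adjusted p = 2.42e-06), and in progenitors the log2FC was -0.99 (SE 0.38, adjusted p = 0.595). Ifit2, a related RNA-binding protein, was at 3.77, 3.63 and 3.24 in NTC progenitors and 3.11, 2.92 and 2.83 in sgRNA 1 progenitors. In macrophages Ifit2 was at 5.43 and 5.31 with NTC and at 11.35, 11.08 and 10.22 with sgRNA 1. Here the progenitor groups did not overlap, with the knockout lower, yet the difference missed the threshold (log2FC -0.59, SE 0.25, adjusted p = 0.669). The rise in macrophages was 45.6-fold (log2FC 5.51, SE 0.27, adjusted p = 2.63e-07). Ifit3, a partner of the other IFIT proteins, was at -1.67, -2.74 and -1.81 in NTC and -1.15, -1.68 and -1.82 in sgRNA 1 progenitors. Its macrophage values were 4.76 and 4.42 with NTC and 11.36, 11.06 and 10.02 with sgRNA 1. Progenitor groups overlapped and macrophage groups did not, with a 74.6-fold difference in the latter (log2FC 6.22, SE 0.41, adjusted p = 1.5e-06). The NTC macrophage library of set 4 had 3.65, 5.17 and 4.51 for the 3 genes on its own scale.

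Rsad2 encodes viperin, which turns CTP into a chain-terminating analogue, and Cmpk2 a mitochondrial nucleotide kinase that can supply CTP. Rsad2 was at -0.75, -0.26 and -1.03 in NTC progenitors and -0.91, -0.85 and -0.87 in sgRNA 1 progenitors. NTC macrophages had Rsad2 at 1.93 and 1.90 and sgRNA 1 macrophages at 9.25, 9.47 and 8.16. These macrophage groups lay 132-fold apart (log2FC 7.04, SE 0.35, adjusted p = 2.63e-07), while the progenitors overlapped. Cmpk2 was close to the lowest value in progenitors, at -2.46, -2.51 and -2.13 with NTC and -2.28, -2.94 and -2.87 with sgRNA 1. It was at -0.92 and -0.55 in NTC macrophages and 5.34, 5.83 and 4.95 in sgRNA 1 macrophages. Again the macrophage groups alone were apart, by 68.9-fold (log2FC 6.11, SE 0.37, adjusted p = 7.06e-07). The library of set 4 had Rsad2 at 1.70 and Cmpk2 at -1.47.

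Of the Mx GTPases, Mx1 acts in the nucleus of mouse cells and Mx2 in the cytoplasm, and the annotation used here lists both as transcribed pseudogenes. Mx1 was at -0.39, -0.72 and 0.33 in NTC progenitors, -1.21, 0.17 and 0.26 in sgRNA 1 progenitors, 1.5 and 1.34 in NTC macrophages and 6.67, 6.26 and 5.43 in sgRNA 1 macrophages. Mx2 was at -1.71, -1.81 and -2.29 in NTC progenitors, -3.0, -0.73 and -3.43 (the last at 0 CPM) in sgRNA 1 progenitors, 0.74 and 1.48 in NTC macrophages and 6.38, 6.07 and 5.52 in sgRNA 1 macrophages. For both genes sgRNA 1 macrophages were above every NTC macrophage and the progenitor groups overlapped. The differences in macrophages were 26.0-fold for Mx1 (log2FC 4.70, SE 0.49, adjusted p = 3.96e-05) and 29.4-fold for Mx2 (log2FC 4.88, SE 0.66, adjusted p = 0.000289), the smallest among the members. Ifi44, whose antiviral mechanism is less well known, was at -2.15, -2.87 and -2.35 in NTC progenitors and -2.19, -2.21 and -2.65 in sgRNA 1 progenitors. Macrophages had it at -1.66 and -0.25 with NTC and 7.74, 6.60 and 6.07 with sgRNA 1. This was the widest gap of the 8, 217-fold (log2FC 7.76, SE 0.52, adjusted p = 1.69e-06), with no overlap. In set 4 the NTC library had Mx1 at 1.43, Mx2 at 1.16 and Ifi44 at 0.07.

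**Figure D1:**
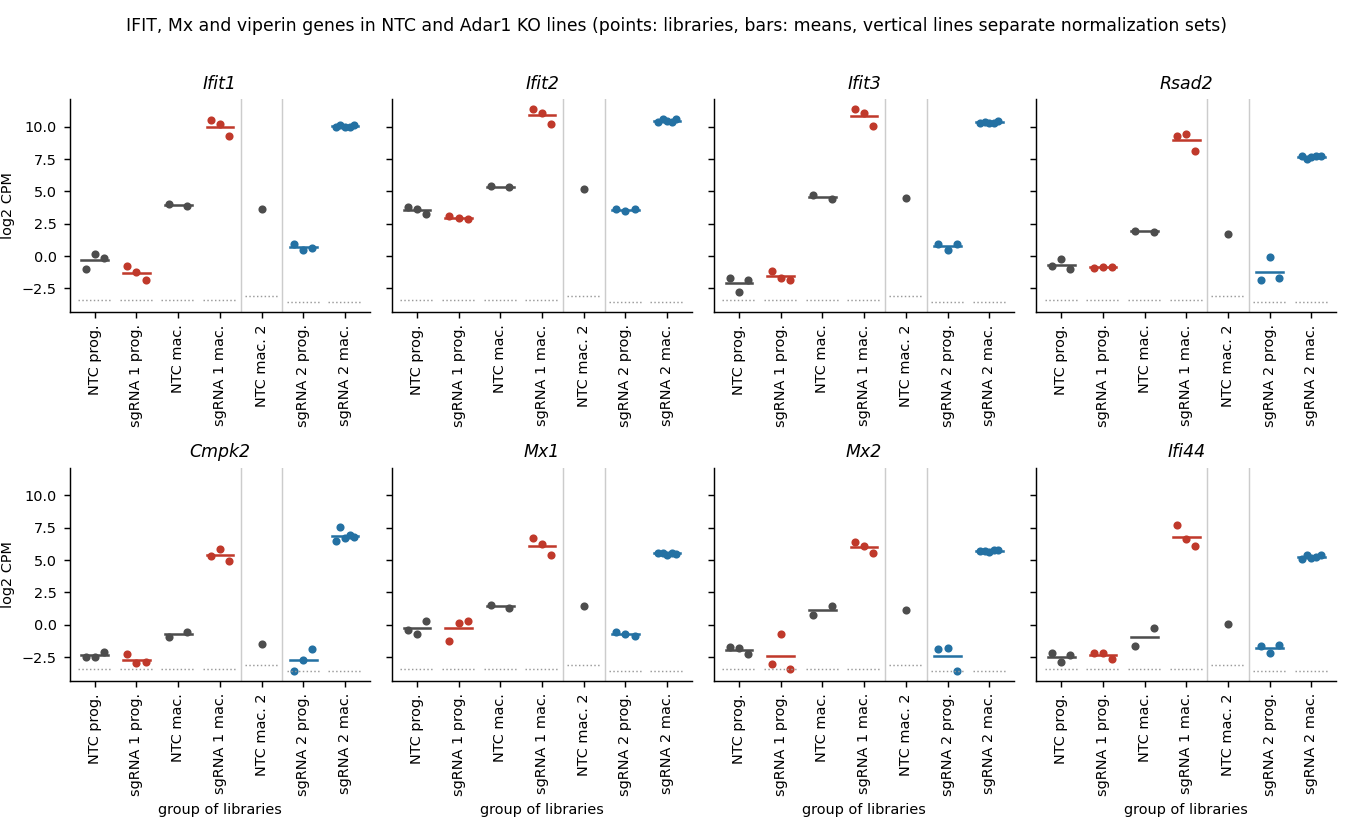
Log2 CPM of the 8 members (y axis) in each library (points, in replicate order) of NTC and Adar1 KO progenitors and macrophages (x axis), with bars at group means, vertical lines between normalization sets and dotted lines at the lowest value of each set. Ifit1 is at 4.03 and 3.87 in NTC macrophages of set 3 and at 10.54, 10.19 and 9.27 in sgRNA 1 macrophages.

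Some members also rose from progenitor to macrophage without the knockout. From NTC progenitors to NTC macrophages, 4 of 8 were DEGs, each higher (23.5% of all genes), against 2 with a pseudocount of 1 and 1 with only the groups compared. They were Ifit1 (log2FC 4.25, SE 0.43, adjusted p = 3.62e-06), Ifit3 (log2FC 6.67, SE 0.41, adjusted p = 5.83e-08), Rsad2 (log2FC 2.59, SE 0.35, adjusted p = 4.16e-05) and Mx2 (log2FC 3.05, SE 0.66, adjusted p = 0.0014). The other 4, Ifit2, Cmpk2, Mx1 and Ifi44, had log2FC of 1.83, 1.63, 1.68 and 1.5 with adjusted p of 9.49e-05, 0.0018, 0.0091 and 0.0227, short of the fold for a DEG. Ifit3, Rsad2, Mx2, Cmpk2 and Ifi44 entered this fit only through Adar1 KO macrophages. Their values here are descriptions, and of the members called only Ifit1 entered without those libraries. From sgRNA 1 progenitors to macrophages 8 of 8 were DEGs (21.6% of all genes), with log2FC from 6.38 for Mx1 to 12.36 for Ifit3, and the values of Ifit3, Rsad2, Cmpk2, Mx2 and Ifi44 are descriptions, since these passed the filter only through those macrophages. The difference between the knockout effects in macrophages and in progenitors was itself tested, and 8 of 8 members passed (4.19% of all genes), from 4.70 (SE 0.66, adjusted p = 0.000602) for Mx1 to 7.65 (SE 0.70, adjusted p = 3.6e-05) for Ifi44. For the same 5 genes this too is a description, and Ifit1, Ifit2 and Mx1 are the members for which it is a test. These comparisons share libraries, so they are not independent of each other.

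The second guide had no control on its scale, so its progenitors were compared with its macrophages. Ifit1 was at 0.93, 0.47 and 0.61 in sgRNA 2 progenitors and 10.02, 10.11, 10.00, 9.99 and 10.16 in sgRNA 2 macrophages. Ifit2 was at 3.65, 3.49 and 3.61 in progenitors and 10.39, 10.57, 10.43, 10.39 and 10.58 in macrophages, and Ifit3 at 0.92, 0.47 and 0.94 in progenitors and 10.32, 10.39, 10.29, 10.28 and 10.42 in macrophages. All 3 IFIT genes were thus high in every macrophage library and tightly grouped. Rsad2 was at -1.87, -0.04 and -1.72 in progenitors and 7.75, 7.53, 7.69, 7.72 and 7.74 in macrophages, and Cmpk2 at -3.56, -2.69 and -1.87 (the first at 0 CPM) in progenitors and 6.48, 7.56, 6.74, 6.92 and 6.81 in macrophages. Progenitors had Mx1 at -0.56, -0.68 and -0.90 and macrophages at 5.56, 5.58, 5.44, 5.56 and 5.50. Progenitors had Mx2 at -1.89, -1.80 and -3.56 (the last at 0 CPM) and macrophages at 5.67, 5.73, 5.67, 5.76 and 5.8. Both Mx genes were again far higher in each macrophage library. Ifi44 was at -1.62, -2.21 and -1.55 in progenitors and 5.12, 5.43, 5.14, 5.23 and 5.43 in macrophages. Between sgRNA 2 progenitors and macrophages 8 of 8 were DEGs (19.3% of all genes), with a median log2FC of 8.52. The log2FC was 9.56 (SE 0.10, adjusted p = 2.84e-13) for Ifit3 and 6.24 for Mx1. Rsad2, Cmpk2, Mx1, Mx2 and Ifi44 passed the filter only through the macrophages. For these the call could hardly fail, so their values and their part of the count are descriptions. Ifit1, Ifit2 and Ifit3 passed without the macrophages. With sgRNA 2 the part of differentiation and the part of the knockout cannot be told apart.

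Baricitinib was then read gene by gene over 5 doses. Without drug, 8 of 8 members were DEGs and higher in Adar1 KO than in NTC macrophages (3.87% of 11152 genes tested), and 8 of 8 were at 0.0006 uM (5.00%) and 0.016 uM (5.12%). At 0.4 uM 7 of 8 were DEGs (1.78%), a count that rested on 1 library, and at 10 uM 0 of 8 by limma (3.14%), with 0 at an unadjusted p below 0.05. Within Adar1 KO cells, 10 uM against no drug gave 8 of 8 DEGs, all lower (14.7%). These comparisons share NTC or undrugged libraries, so their values stand side by side. All 8 genes passed the filter without the group where they were highest, and without any Adar1 KO library 5 did. For the rest, Rsad2, Cmpk2 and Ifi44, the differences from NTC, and those between doses in that difference, are descriptions.

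Ifit1 in NTC macrophages was at 1.83, 2.07 and 1.5 without drug, at 1.58, 1.74 and 2.88 with 0.0006 uM, at 1.56, 1.10, 1.51 and 1.36 with 0.016 uM, at 0.40, -0.35, -0.51 and -0.70 with 0.4 uM and at -0.04, -0.28 and -1.21 with 10 uM. Adar1 KO macrophages had Ifit1 at 8.83, 8.96 and 9.15 without drug, at 8.85, 9.18 and 8.90 with 0.0006 uM, at 9.36, 9.23 and 9.00 with 0.016 uM, at 0.54, 11.78 and 3.03 with 0.4 uM and at 1.26, 1.0, 0.32 and 0.47 with 10 uM. Up to 0.016 uM the knockout libraries sat far above NTC. At 0.4 uM replicate 2 was the highest library of the experiment, replicate 1 lay near NTC and replicate 3 above it, and at 10 uM the groups were low and close, the knockout still above each NTC library. The log2FC of Adar1 KO over NTC was 7.18 (adjusted p = 0.000213) without drug, 6.91 (adjusted p = 0.000266) at 0.0006 uM, 7.82 (adjusted p = 2.12e-05) at 0.016 uM, 5.41 (adjusted p = 0.00495) at 0.4 uM and 1.27 (adjusted p = 0.432) at 10 uM, the last with a 95% interval of -1.30 to 3.85. In knockout cells 10 uM against no drug lowered it (log2FC -8.22, SE 1.26, adjusted p = 2.02e-06).

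Ifit2 in NTC macrophages was at 3.81, 4.10 and 3.60 without drug, at 3.44, 4.31 and 4.14 with 0.0006 uM, at 3.95, 3.74, 3.48 and 3.37 with 0.016 uM, at 3.19, 3.22, 2.95 and 3.36 with 0.4 uM and at 3.66, 3.54 and 3.61 with 10 uM. In the knockout Ifit2 was at 9.60, 9.56 and 9.87 without drug, at 9.65, 9.90 and 9.40 with 0.0006 uM, at 10.01, 9.87 and 9.67 with 0.016 uM, at 3.61, 13.97 and 5.40 with 0.4 uM and at 3.61, 3.23, 3.41 and 3.49 with 10 uM. NTC values moved little with dose, and the knockout at 10 uM lay within and just below the NTC range. Replicate 2 at 0.4 uM exceeded all undrugged knockout libraries. Over NTC the log2FC of Ifit2 was 5.84 (adjusted p = 0.000878) without drug, 5.69 (adjusted p = 0.000891), 6.22 (adjusted p = 0.000133) and 4.48 (adjusted p = 0.0109) at the next 3 doses and -0.17 (adjusted p = 0.923) at 10 uM (95% interval -2.55 to 2.21). From no drug to 10 uM it fell in the knockout (log2FC -6.24, SE 1.16, adjusted p = 3.23e-05).

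Ifit3 in NTC macrophages was at 1.99, 2.33 and 1.98 without drug, at 1.17, 2.29 and 2.65 with 0.0006 uM, at 1.46, 0.73, 0.26 and 1.09 with 0.016 uM, at -0.46, -0.56, 0.30 and -0.37 with 0.4 uM and at -0.84, -0.69 and -1.64 with 10 uM. Knockout macrophages held Ifit3 at 9.65, 9.55 and 9.68 without drug, at 9.47, 9.87 and 9.65 with 0.0006 uM, at 9.80, 9.69 and 9.63 with 0.016 uM, at 0.15, 12.72 and 4.08 with 0.4 uM and at -0.09, -0.24, -0.33 and 0.33 with 10 uM. The groups at 10 uM did not overlap, the knockout being slightly higher, and NTC at 0.4 and 10 uM lay below undrugged NTC. Ifit3 had a log2FC over NTC of 7.53 (adjusted p = 0.00032) without drug, 7.63 (adjusted p = 0.000218), 8.82 (adjusted p = 1.26e-05) and 5.92 (adjusted p = 0.00463) at rising doses and 0.97 (adjusted p = 0.594) at 10 uM (95% interval -1.82 to 3.77). Against no drug, the knockout at 10 uM was lower (log2FC -9.71, SE 1.36, adjusted p = 5.25e-07).

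Rsad2 in NTC macrophages was at -0.02, 0.38 and -0.05 without drug, at -0.23, -0.31 and 0.74 with 0.0006 uM, at -1.64, -2.18, -1.28 and -0.11 with 0.016 uM, at -1.82, -2.78, -0.64 and -1.43 with 0.4 uM and at -2.78, -2.78 and -1.78 with 10 uM, with values of -2.78 standing for 0 CPM. The knockout had Rsad2 at 7.45, 7.08 and 6.85 without drug, at 7.02, 6.98 and 7.05 with 0.0006 uM, at 6.78, 6.53 and 7.10 with 0.016 uM, at -2.27, 9.49 and 0.52 with 0.4 uM and at -2.78, -2.09, -2.27 and -1.21 with 10 uM. At 10 uM the libraries of both genotypes were at or near 0 CPM and overlapped. Rsad2 differed from NTC by a log2FC of 7.02 (adjusted p = 0.000602) without drug, 6.95 (adjusted p = 0.000523), 8.11 (adjusted p = 3.22e-05) and 4.25 (adjusted p = 0.0357) at rising doses and 0.36 (adjusted p = 0.855) at 10 uM (95% interval -2.40 to 3.12). In knockout cells the change from no drug to 10 uM was -9.21 (SE 1.34, adjusted p = 9.93e-07).

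Cmpk2 in NTC macrophages was at 0.12, -2.24 and -1.90 without drug, at -0.34, -1.58 and -0.24 with 0.0006 uM, at -1.70, -2.17, -2.07 and -2.78 with 0.016 uM, at -2.78 in each library with 0.4 uM and at -2.78 in each library with 10 uM, so at the upper doses it was listed at 0 CPM throughout and the size of any fold against those groups rests on the offset. Knockout macrophages had Cmpk2 at 4.00, 4.44 and 4.52 without drug, at 4.03, 5.91 and 5.08 with 0.0006 uM, at 4.81, 4.03 and 4.75 with 0.016 uM, at -2.78, 6.78 and -0.05 with 0.4 uM and at -2.10, -2.38, -2.25 and -2.78 with 10 uM. Knockout libraries were clearly above NTC up to 0.016 uM, and at 10 uM 3 of 4 were just above the lowest value. Cmpk2 had a log2FC over NTC of 5.66 (adjusted p = 0.000799), 5.73 (adjusted p = 0.000556) and 6.71 (adjusted p = 3.26e-05) at the first 3 doses. From no drug to 10 uM it fell in the knockout (log2FC -6.70, SE 1.11, adjusted p = 7.08e-06).

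Mx1 in NTC macrophages was at 0.83, 0.28 and 1.02 without drug, at 0.95, 1.64 and 1.94 with 0.0006 uM, at 1.15, 0.49, -0.02 and 0.62 with 0.016 uM, at 0.02, -0.07, 0.14 and 0.22 with 0.4 uM and at -0.58, -0.39 and 0.32 with 10 uM. With the knockout Mx1 was at 5.51, 4.85 and 5.04 without drug, at 4.47, 5.38 and 4.71 with 0.0006 uM, at 5.53, 5.08 and 4.86 with 0.016 uM, at -0.11, 8.50 and 0.86 with 0.4 uM and at -0.34, -0.72, -0.70 and -0.27 with 10 uM. Genotypes were apart up to 0.016 uM and overlapped at 0.4 and 10 uM. Its log2FC over NTC was 4.42 (adjusted p = 0.00338) without drug, 3.34 (adjusted p = 0.021), 4.60 (adjusted p = 0.000882) and 3.0 (adjusted p = 0.0488) at rising doses and -0.29 (adjusted p = 0.843) at 10 uM (95% interval -2.38 to 1.79). From no drug to 10 uM Mx1 fell in the knockout (log2FC -5.64, SE 1.02, adjusted p = 2.19e-05).

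Mx2 in NTC macrophages was at 0.56, -0.37 and -0.06 without drug, at -0.58, 1.13 and 0.79 with 0.0006 uM, at 0.08, -0.34, -0.77 and -0.26 with 0.016 uM, at -2.25, -2.12, -1.84 and -2.19 with 0.4 uM and at -2.78, -2.20 and -2.78 with 10 uM. Mx2 in the knockout was at 5.46, 5.28 and 5.30 without drug, at 5.45, 5.59 and 5.41 with 0.0006 uM, at 5.67, 5.63 and 5.41 with 0.016 uM, at -1.64, 9.03 and 1.37 with 0.4 uM and at -2.78, -1.85, -2.27 and -2.21 with 10 uM. Up to 0.016 uM every knockout library was far above every NTC library. At 0.4 uM the knockout was still above each NTC library, and at 10 uM both were near 0 CPM. The log2FC over NTC ran 5.30 (adjusted p = 0.00255), 5.04 (adjusted p = 0.00322), 5.89 (adjusted p = 0.000303), 5.02 (adjusted p = 0.00544) and 0.31 (adjusted p = 0.859) over the 5 doses, with a 95% interval of -2.11 to 2.73 at 10 uM. Knockout cells fell from no drug to 10 uM (log2FC -7.63, SE 1.18, adjusted p = 2.45e-06).

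Ifi44 in NTC macrophages was at -1.39, -1.84 and -1.0 without drug, at -1.29, -2.78 and -0.80 with 0.0006 uM, at -1.08, -0.68, -1.74 and -2.02 with 0.016 uM, at -0.43, -0.96, -1.01 and -1.09 with 0.4 uM and at -1.68, -1.88 and -1.92 with 10 uM, low at each dose. For the knockout, Ifi44 was at 6.09, 6.12 and 6.04 without drug, at 6.01, 6.79 and 6.35 with 0.0006 uM, at 6.96, 6.93 and 6.10 with 0.016 uM, at -1.42, 7.10 and -1.5 with 0.4 uM and at -2.78, -2.17, -2.78 and -0.80 with 10 uM. At 0.4 uM knockout replicates 1 and 3 were below every NTC library and replicate 2 far above, and at 10 uM the genotypes overlapped. Ifi44 had a log2FC over NTC of 7.49 (adjusted p = 2.68e-05), 8.01 (adjusted p = 8.68e-06), 8.05 (adjusted p = 2.43e-06), 2.26 (adjusted p = 0.178) and -0.31 (adjusted p = 0.851) at rising doses, with a 95% interval of -2.58 to 1.97 at 10 uM. The change from no drug to 10 uM in the knockout was -8.22 (SE 1.11, adjusted p = 2.75e-07).

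**Figure D2:**
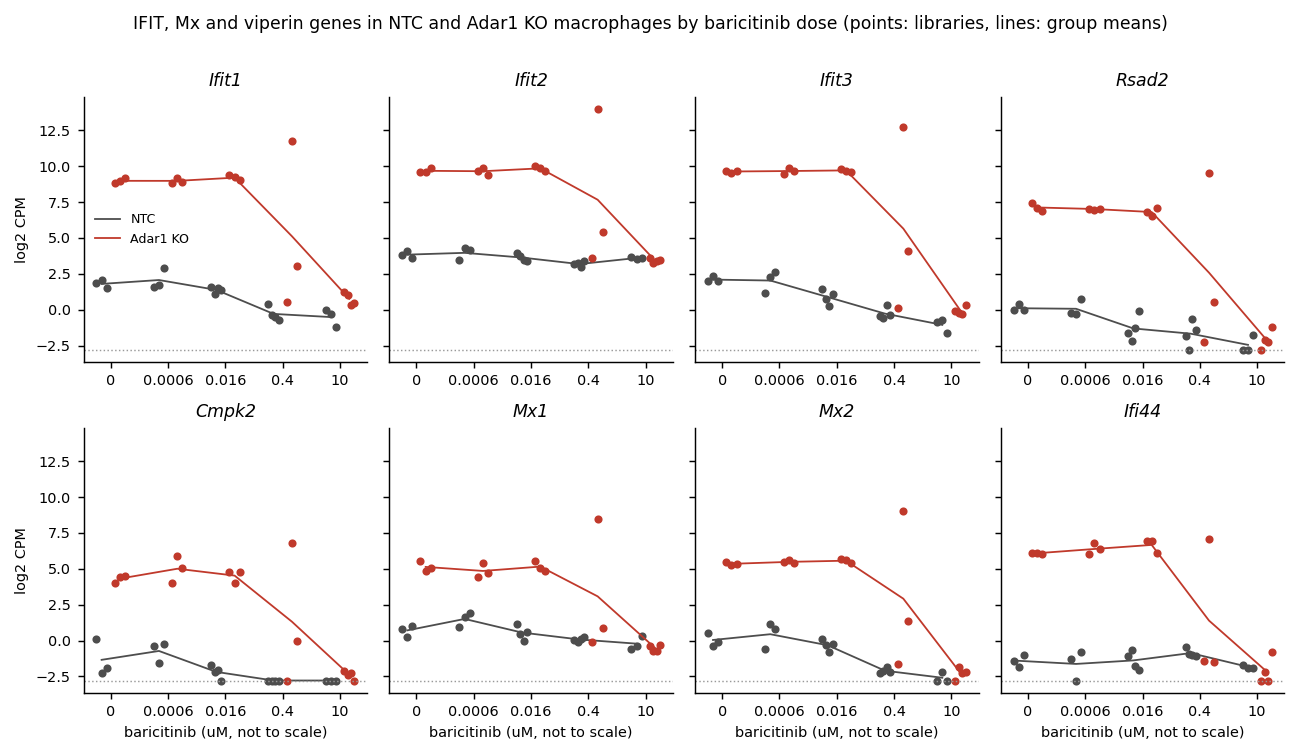
Log2 CPM of the 8 members (y axis) in each NTC and Adar1 KO library (points) by baricitinib dose in uM (x axis, not to scale), with lines through group means and a dotted line at the lowest value, -2.78. Knockout libraries of Ifit2 are at 9.60, 9.56 and 9.87 without drug and at 3.61, 3.23, 3.41 and 3.49 with 10 uM, and replicate 2 at 0.4 uM is at 13.97.

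The intermediate dose was read with and without Adar1 KO replicate 2 at 0.4 uM, which also widens the shared estimate of the spread. At 10 uM, leaving it out gave 0 of 8 DEGs over NTC (3.19%) and 1 member with an unadjusted p below 0.05, Ifit1 (adjusted p = 0.0078, 95% interval 0.48 to 2.07). Without it, 2 of 8 members were DEGs over NTC at 0.4 uM (0.988% of all genes): Ifit1 (log2FC 2.08, SE 0.44, adjusted p = 0.00275) and Ifit3 (log2FC 2.39, SE 0.57, adjusted p = 0.00747). Ifit2 had a log2FC of 1.33, Mx2 1.96, Rsad2 0.79, Mx1 0.30 and Ifi44 -0.59. Against undrugged knockout cells, 4 of 8 were DEGs at 0.4 uM with all libraries, each lower (1.93%): Ifit1, Ifit3, Rsad2 and Ifi44, with log2FC of -3.86, -3.98, -4.54 and -4.69. Without replicate 2 the count was 8 of 8 (4.29%), from -4.76 for Mx1 to -8.00 for Rsad2. With replicate 1 or replicate 3 at 0.4 uM left out in its place the count was 0, and without undrugged knockout replicate 1, 2 or 3 it was 1, 2 and 2. The result at 0.4 uM thus depends on which libraries are kept. At the lower doses 0 of 8 members changed in the knockout by limma, at 0.0006 uM (0.0628% of all genes) and at 0.016 uM (0.152%), with 0 at an unadjusted p below 0.05 at either dose.

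In NTC cells limma called 0 of 8 members at 0.0006, 0.016 and 0.4 uM against no drug (0% of all genes at each), with 0 at an unadjusted p below 0.05, and 0 of 8 at 10 uM (0.834%), with 2 below it. The log2FC from 0 to 10 uM was -2.31 (adjusted p = 0.268) for Ifit1, -3.15 (adjusted p = 0.151) for Ifit3, -2.55 (adjusted p = 0.251) for Rsad2, -2.63 (adjusted p = 0.169) for Mx2 and -0.23 (adjusted p = 0.927) for Ifit2. Without knockout replicate 2 at 0.4 uM, whose absence narrows the shared spread, 3 of 8 were DEGs in NTC at 0.4 uM (0.153%), namely Ifit1, Ifit3 and Mx2, and 4 at 10 uM (0.988%).

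The dependence of the knockout effect on dose was tested as a difference of differences against no drug. At 10 uM 8 of 8 members passed, each lower (7.11% of all genes). The difference was -7.80 for Ifi44 and -6.66 for Rsad2, which with Cmpk2 entered the fit only through Adar1 KO libraries, so that these values are descriptions. For Mx1, which entered without them, it was -4.71 (SE 1.49, adjusted p = 0.0135). By limma 0 of 8 passed at 0.0006 uM (0%, with 0 at an unadjusted p below 0.05), 0 at 0.016 uM (0.00897%, with 0) and 0 at 0.4 uM (0.681%, with 1, Ifi44). Without knockout replicate 2 at 0.4 uM, 8 of 8 passed at 0.4 uM (2.43%) and 8 of 8 at 10 uM (7.56%).

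**Figure D3:**
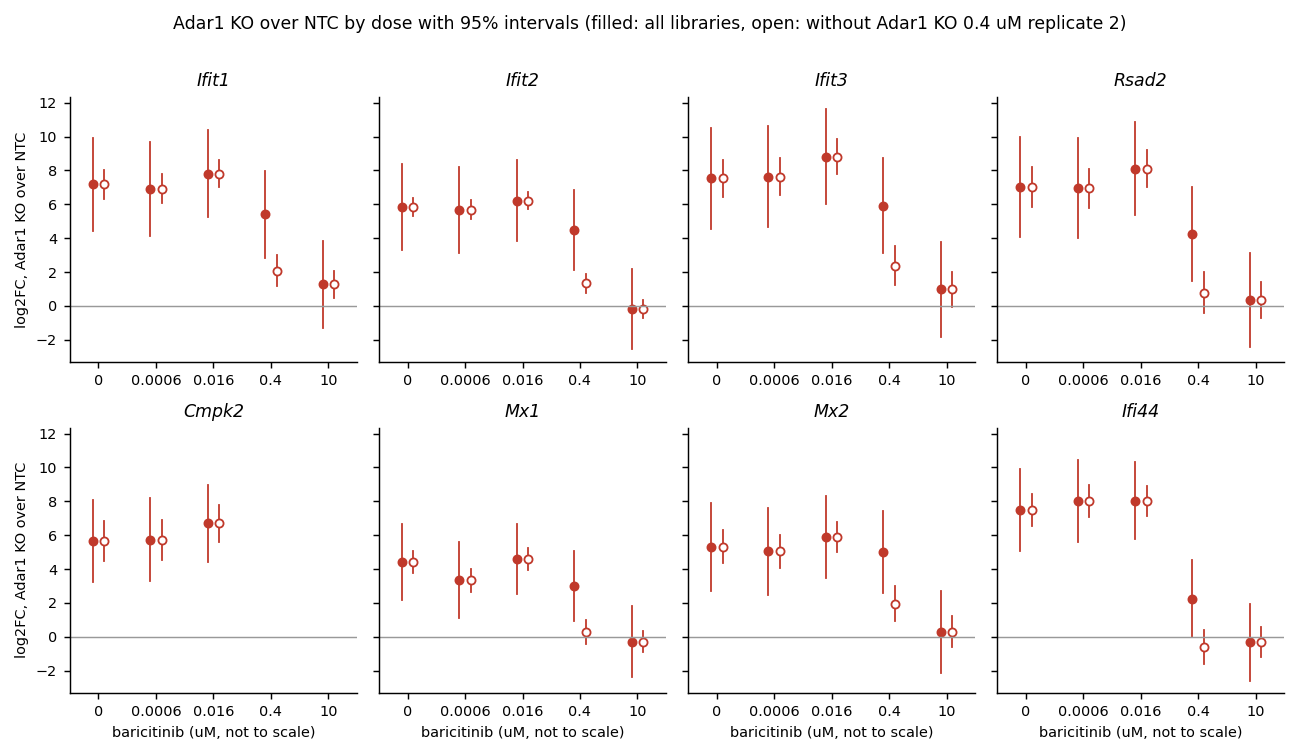
Log2FC of Adar1 KO over NTC (y axis) by baricitinib dose in uM (x axis, not to scale) for the 8 members, with all libraries (filled) and without Adar1 KO replicate 2 at 0.4 uM (open), and bars for 95% intervals. For Ifi44 it is 7.49 without drug and -0.31 at 10 uM, and Cmpk2 at 0.4 and 10 uM is left out because every NTC library was at the lowest value.

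The pathway around the members was read from lists of its genes. Of the ligands, Ifnb1 passed the filter in the sgRNA 2 and baricitinib fits but not with sgRNA 1, and Ifna1, Ifna2, Ifna4 and Ifna5 stayed below it in each fit. Ifnb1 was at 2.08, 1.55 and 0.09 in sgRNA 1 macrophages, at -3.43 and -2.28 in NTC macrophages (the first at 0 CPM) and at 0.03, 0.62, 0.39, 0.55 and 0.30 in sgRNA 2 macrophages. In knockout macrophages of the drug series it was at 0.40, -0.27 and -0.22 without drug, at 0.72, -1.87 and -0.20 with 0.0006 uM, at 0.15, 0.13 and -0.10 with 0.016 uM, at -2.78, 6.02 and -2.29 with 0.4 uM and at -2.78 in each library with 10 uM. Replicate 2 at 0.4 uM, the library with the high member values, was also the one with high Ifnb1, and it had Ifna1, Ifna2, Ifna4 and Ifna5 at 20.1, 34.7, 28.2 and 43.8 CPM against under 1 CPM in every other library of the drug series. At 10 uM each knockout library had Ifnb1 at 0 CPM. The list of 8 sensing genes counts Adar itself. Among them, 4 were DEGs and higher in sgRNA 1 than in NTC macrophages, Ifih1 (2.63), Ddx58 (2.61), Dhx58 (2.38) and Irf7 (5.61), with 0 lower (values in brackets are log2FC). In undrugged knockout over NTC macrophages 3 of 8 were higher (3.87% of all genes were DEGs), and from 0 to 10 uM in the knockout 5 of 8 were lower (14.7%). With sgRNA 1 over NTC macrophages that share was 4.02%. Of the genes downstream of the receptor, Stat2 was a DEG and higher with sgRNA 1 (2.51), and Stat2 and Irf9 were lower in the knockout at 10 uM (-5.26 and -3.17). Of the feedback genes Usp18, Socs1 and Socs3, Usp18 was higher with sgRNA 1 (5.39) and lower in the knockout at 10 uM (-9.39), while Socs3 did not pass with sgRNA 1 (0.70) and Socs1 was not tested there. Of the relatives of the members, Ifit3b, Ifit1bl1 and Ifit1bl2 were higher with sgRNA 1 (6.11, 2.93 and 5.19) and 3 of 3 were lower in the knockout at 10 uM, and Ifi44l was not tested. Other interferon-stimulated genes were taken from those that the study had plotted from these samples, so they are not independent evidence. Among them Isg15 (4.69) and Zbp1 (4.64) were higher with sgRNA 1 and lower in the knockout at 10 uM (-5.15 and -6.80), while Ccl2 and Cxcl10 did not pass as DEGs there. In NTC cells at 10 uM Oas1a, Oas1g, Oas2, Oas3, Usp18 and Zbp1 were lower.

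Over the 33 baricitinib libraries the members moved together. Pearson correlations between pairs of members (28 pairs) ran from 0.930 to 0.993, and from 0.866 to 0.982 after group means were removed. Without knockout replicate 2 at 0.4 uM, a choice made after seeing the data, they ran from 0.929 to 0.992 and within groups from -0.016 to 0.858, so the range within groups depends on that library. The points share genotype and dose, so these are descriptions. Marker lists were read in the same libraries. Of 7 macrophage markers, 0 were DEGs between genotypes by limma in the guide lines or at any dose. They summed to 9386 to 10395 CPM (median 10279) in sgRNA 1 and 11897 to 13352 CPM (median 12624) in NTC macrophages, led by Cd68 and Csf1r. Border macrophage markers (Mrc1, Lyve1, Cd163) summed to 59.7 to 90.2 CPM (median 78.8) with sgRNA 1 and 628 to 766 CPM (median 697) with NTC, mostly Mrc1, the 1 gene of the list that was tested, which was lower (-3.20). Of 3 monocyte markers 1 was higher and 1 lower with sgRNA 1, and of 5 neutrophil markers 1 was higher, their sum being 68.5 to 81.9 CPM (median 80.3) against 10.8 to 15.2 CPM (median 12.98). Neutrophil markers in knockout cells at 0.4 uM summed to 245, 76.1 and 325 CPM, lowest in replicate 2, and led by S100a8. Plasmacytoid dendritic cell markers, the list of the cells known for making type I interferon, summed to 0.319 to 0.537 CPM (median 0.441) with sgRNA 1 and 0.345 to 0.781 CPM (median 0.563) with NTC. Progenitor markers fell in 3 of 4 from NTC progenitors to macrophages and summed to 1.41 to 1.75 CPM (median 1.58) there. Of these markers, Cd34 was higher in sgRNA 1 macrophages (1.56 to 3.24) than in NTC macrophages (0.51 to 0.62), without overlap. Kit was at 0 CPM in both groups, and Mpo and Elane overlapped. In the drug series the genotypes overlapped for Cd34 without drug. At 10 uM it was at 3.43 to 3.86 in the knockout and 0.47 to 0.84 in NTC. Lymphocyte and NK markers stayed under 1 CPM in all of these macrophages. The part of these markers in the results was not tested.

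In cells recovered from brain, the median of each member was highest in ER-Hoxb8 MLC. Over microglia 8 of 8 members were DEGs in ER-Hoxb8 MLC (16.3% of 12518 genes tested), with a median log2FC of 5.19 against -0.10 over all genes, and over ER-Hoxb8 macrophages in vitro 8 of 8 (19.3%, median 4.98). In BMD MLC 3 of 8 were DEGs over microglia (10.7%), namely Cmpk2, Mx1 and Ifi44, and 0 with a pseudocount of 1. Over BMD macrophages in vitro 5 of 8 were (15.9%), namely Ifit3, Cmpk2, Mx1, Mx2 and Ifi44, and 3 with that pseudocount. Between both kinds of MLC 5 of 8 were higher in ER-Hoxb8 MLC (6.56%): Ifit1, Ifit2, Ifit3, Rsad2 and Mx1. All 8 passed the filter also without ER-Hoxb8 MLC. The source of the cells and, for microglia, the host differ together between these groups, so their parts cannot be told apart. Between ER-Hoxb8 MLC and ER-Hoxb8 macrophages the genotype differs as well, since the MLC are labelled WT and the macrophages are Cas9 heterozygous. Without microglia replicate 8 the counts were 8, 8, 2, 5 and 5 in the same order, the call lost being Mx1 in BMD MLC over microglia.

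Ifit1 was between 1.74 and 2.91 (median 2.03) in microglia, between 1.35 and 4.32 (median 3.29) in BMD MLC and between 6.34 and 8.87 (median 7.94) in ER-Hoxb8 MLC. In vitro it was at -0.53, 0.98 and 3.09 in BMD macrophages and 3.45, 2.94 and 2.06 in ER-Hoxb8 macrophages. Every ER-Hoxb8 MLC library was above every other library of the set, and the other 4 groups overlapped. The gap to BMD MLC was 27.7-fold (log2FC 4.79, SE 0.53, adjusted p = 3.52e-07). Ifit2 was between 2.97 and 5.36 (median 3.62) in microglia, between 0.91 and 5.41 (median 4.81) in BMD MLC and between 8.45 and 10.76 (median 9.91) in ER-Hoxb8 MLC, with 3.44, 2.71 and 5.04 in BMD and 4.77, 5.16 and 4.48 in ER-Hoxb8 macrophages. The pattern was that of Ifit1, with ER-Hoxb8 MLC alone above (log2FC 5.39, SE 0.60, adjusted p = 3.87e-07 over BMD MLC). Ifit3 was between -1.13 and 3.91 (median 2.49) in microglia, between 3.55 and 5.29 (median 4.27) in BMD MLC and between 6.95 and 8.84 (median 8.35) in ER-Hoxb8 MLC, with 0.93, 0.76 and 2.96 in BMD and 3.31, 3.44 and 3.08 in ER-Hoxb8 macrophages. BMD MLC lay between microglia and ER-Hoxb8 MLC and overlapped with microglia only. It was 14.2-fold higher in ER-Hoxb8 than in BMD MLC (log2FC 3.82, SE 0.61, adjusted p = 7.28e-05).

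Rsad2 was between -0.81 and 1.51 (median 0.79) in microglia, between 0.90 and 3.03 (median 2.00) in BMD MLC and between 4.59 and 7.83 (median 4.98) in ER-Hoxb8 MLC. BMD macrophages had Rsad2 at -0.15, -0.92 and 2.34 and ER-Hoxb8 macrophages at -0.57, 0.10 and 1.11. ER-Hoxb8 MLC did not overlap with any other group (log2FC 3.51, SE 0.59, adjusted p = 0.000151 over BMD MLC), and replicate 6 was far above the other 5. Cmpk2 was between -3.62 and 0.51 (median -1.18) in microglia, with 2 libraries at 0 CPM, between 0.85 and 3.24 (median 1.66) in BMD MLC and between 2.19 and 5.57 (median 2.97) in ER-Hoxb8 MLC. In vitro Cmpk2 was at -3.62, -2.20 and 0.93 in BMD macrophages, the first at 0 CPM, and -1.06, -3.12 and -2.41 in ER-Hoxb8 macrophages. Both MLC groups were above every microglia library and overlapped with each other (log2FC 1.46, SE 0.83, adjusted p = 0.25). Over microglia the log2FC was 4.72 (SE 0.76, adjusted p = 1.89e-05) in ER-Hoxb8 MLC and 3.26 (SE 0.76, adjusted p = 0.0023) in BMD MLC.

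Mx1 was between -3.62 and 1.94 (median 1.11) in microglia, between 2.81 and 3.83 (median 3.08) in BMD MLC and between 5.25 and 6.85 (median 6.56) in ER-Hoxb8 MLC, with 0.21, 1.18 and -0.19 in BMD and 0.56, 0.72 and 0.55 in ER-Hoxb8 macrophages. Microglia, BMD MLC and ER-Hoxb8 MLC formed steps without overlap, with log2FC of 2.52 (adjusted p = 0.00166) from the first to the second (1.99 without microglia replicate 8, short of a DEG) and 3.18 (adjusted p = 0.000863) from the second to the third. Mx2 was between -2.88 and 2.50 (median 2.15) in microglia, between 3.09 and 4.18 (median 3.39) in BMD MLC and between 2.09 and 6.03 (median 5.20) in ER-Hoxb8 MLC, whose replicate 2 lay among the microglia. BMD macrophages had Mx2 at 0.63, -0.98 and 0.49 and ER-Hoxb8 macrophages at 0.27, -0.02 and 1.16. The MLC groups overlapped (log2FC 1.33, SE 0.72, adjusted p = 0.223). Ifi44 was between -2.61 and 1.19 (median -1.28) in microglia, between 0.47 and 2.16 (median 1.71) in BMD MLC and between -0.20 and 4.86 (median 3.61) in ER-Hoxb8 MLC, with -1.97, -2.36 and -0.98 in BMD and -2.18, -0.08 and -1.49 in ER-Hoxb8 macrophages. ER-Hoxb8 MLC replicate 5 was low and overlapped with microglia, and the MLC groups overlapped as well (log2FC 1.57, SE 0.74, adjusted p = 0.157). Between ER-Hoxb8 and BMD macrophages in vitro, 0 of 5 members tested were DEGs by limma (1.47% of 10764 genes) and 1, Ifit3, had an unadjusted p below 0.05 (log2FC 1.73, adjusted p = 0.35). Rsad2, Cmpk2 and Ifi44 did not pass the filter there. Ifit1, Mx1 and Mx2 passed it only with the ER-Hoxb8 macrophages, where they were highest, and Ifit2 and Ifit3 passed without them.

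**Figure D4:**
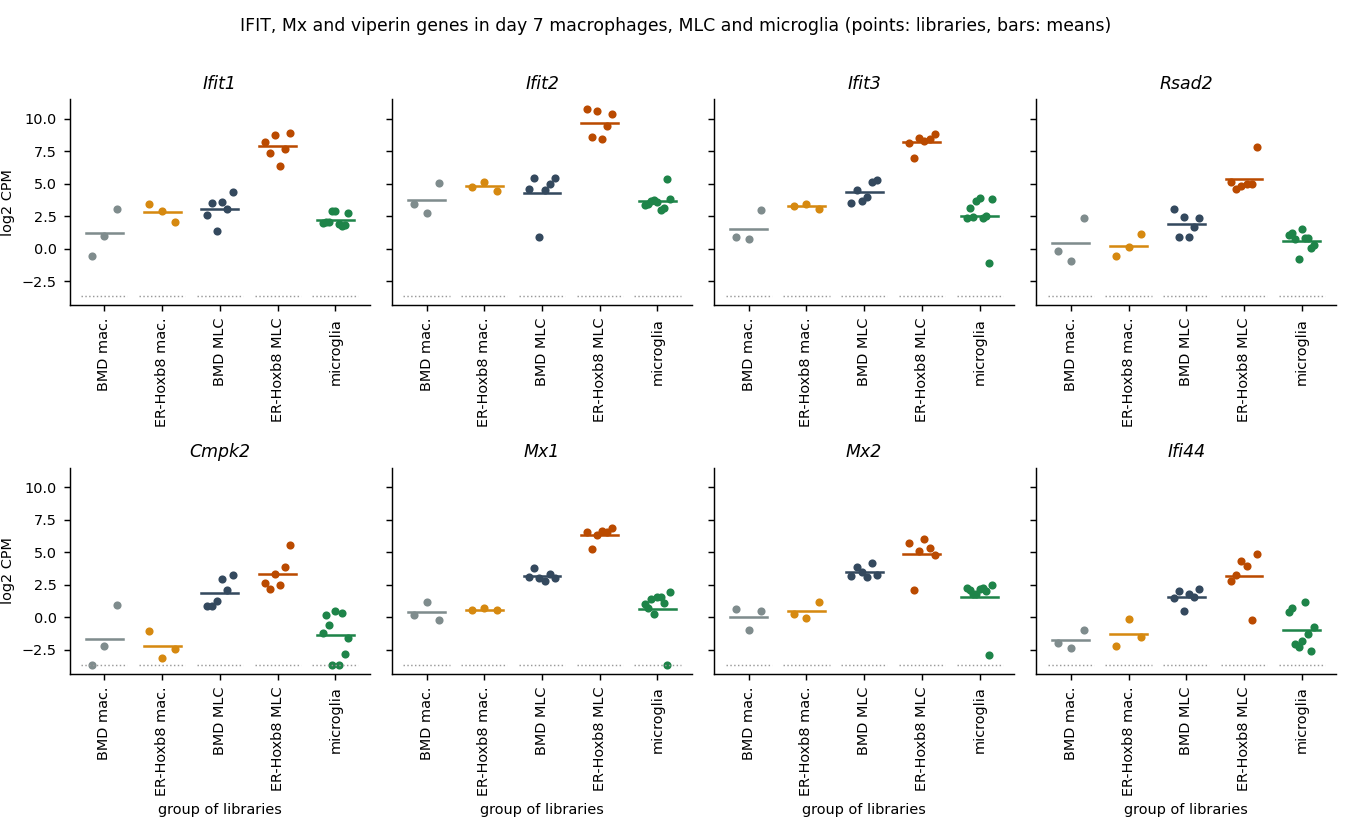
Log2 CPM of the 8 members (y axis) in each library (points) of BMD and ER-Hoxb8 macrophages, BMD and ER-Hoxb8 MLC and microglia (x axis), with bars at group means and a dotted line at the lowest value, -3.62. ER-Hoxb8 MLC have Ifit2 between 8.45 and 10.76 (median 9.91), above all other libraries.

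Other genes and markers moved in the same libraries. Of the other interferon-stimulated genes plotted by the study, Isg15 was higher in ER-Hoxb8 than in BMD MLC (log2FC 4.95) and so was Cxcl10 (8.26). Of the sensing genes 3 of 8 were higher (Ifih1, Dhx58 and Irf7), of the feedback genes 3 of 3 and of the relatives 2 of 3, and Stat2 was higher as well. Over all genes 6.56% were DEGs between both kinds of MLC. Ifnb1 was detected in 2 of 6 ER-Hoxb8 MLC libraries (replicates 1 and 3) and 0 of 6 BMD MLC libraries. Neutrophil markers summed to 4431 to 32940.0 CPM (median 29821) in BMD MLC, 237 to 41011 CPM (median 2052) in ER-Hoxb8 MLC and 406 to 5847 CPM (median 1948) in microglia, led by Ngp, with none at 0, and 3 of 5 were lower in ER-Hoxb8 than in BMD MLC. Lymphocyte and NK markers were 2 of 3 higher in ER-Hoxb8 MLC, at 0.363 to 99.3 CPM (median 6.05) against 0.373 to 3.08 CPM (median 0.877), led by Cd79a. Endothelial markers were 1 of 2 higher, at 44.4 to 90.6 CPM (median 67.2), led by Flt1, against 10.6 to 28.2 CPM (median 22.8), led by Pecam1. Border macrophage markers were 2 of 3 lower, at 2.16 to 888 CPM (median 420.3) against 1363 to 2194 CPM (median 1660.0), led by Mrc1. Monocyte markers (0 of 3 DEGs) summed to 215 to 6563 CPM (median 345) and 452 to 1423 CPM (median 582), plasmacytoid dendritic cell markers (0 of 2) to 1.77 to 7.33 CPM (median 2.78) and 2.54 to 3.88 CPM (median 2.87) and macrophage markers (0 of 7) to 3675 to 9381 CPM (median 5206) and 8823 to 11250.0 CPM (median 9981). Oligodendrocyte markers (0 of 2) summed to 47.0 to 157 CPM (median 111) in ER-Hoxb8 and 11.3 to 81.7 CPM (median 42.4) in BMD MLC, led by Mbp. Astrocyte markers (0 of 2) summed to 26.4 to 77.5 CPM (median 35.7) and 15.7 to 33.6 CPM (median 19.5), led by Aldoc, and neuronal markers (0 of 1) to 0 to 7.52 CPM (median 3.44) and 0 to 5.15 CPM (median 1.38), led by Snap25. Progenitor markers (1 of 3 lower) summed to 3.08 to 191 CPM (median 13.03) and 51.1 to 182 CPM (median 109). The paper describes the cells from brain as sorted by flow cytometry, with CD45 and CD11b among the antibodies listed. The part of these markers in the member values was not tested. Over the 27 libraries of this set, pairs of members correlated with r of 0.555 to 0.946, and of -0.272 to 0.817 within groups, where points share a group and a depth (0.648 to 0.959, and -0.056 to 0.770 within groups, without microglia replicate 8). The 5 genes most like the mean of the members among 12510 were Ifi47 (r = 0.948), Usp18 (0.948), I830012O16Rik (0.945, an older symbol of Ifit3b), AC132444.2 (0.943) and AC132444.4 (0.943).

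Fresh marrow cells and early ER-Hoxb8 cells gave the baseline. Of 7 members tested (Ifi44 did not pass the filter), 1 was a DEG in BM monocytes over BM progenitors (6.84% of 12056 genes), 2 were lower in ER-Hoxb8 than in BM progenitors (15.3%) and 0 by limma changed from ER-Hoxb8 progenitors to day 4 (0%), with 5 at an unadjusted p below 0.05. Without ER-Hoxb8 progenitor replicate 2 the counts were 2, 5 and 5 (8.76%, 17.1% and 6.12%), so both counts with ER-Hoxb8 progenitors rest on that library. The count for BM monocytes (Mx1) fell to 0 without BM progenitor replicate 1 or 3 or without any monocyte replicate, and that for ER-Hoxb8 progenitors fell to 1 without any BM progenitor replicate or ER-Hoxb8 progenitor replicate 1 or 3. Ifit1 was at 0.45, 0.62 and 0.58 in BM progenitors, 3.22, 3.30 and 0.91 in BM monocytes, -0.30, 2.49 and -1.30 in ER-Hoxb8 progenitors and 3.21, 2.75 and 3.38 at day 4. Ifit2 was at 4.70, 4.48 and 4.93 in BM progenitors, 5.17, 4.76 and 4.16 in monocytes, 3.16, 4.36 and 3.10 in ER-Hoxb8 progenitors and 4.59, 4.25 and 4.57 at day 4. ER-Hoxb8 progenitor replicate 2 was the highest of its group for both genes. Ifit3 was at -0.95, -0.07 and -0.94 in BM progenitors, 2.45, 3.57 and 1.48 in monocytes, -1.79, 2.94 and -3.78 in ER-Hoxb8 progenitors and 2.88, 2.93 and 3.06 at day 4. Rsad2 was at -2.01, -1.02 and 0.35 in BM progenitors, 1.27, 1.91 and 0.40 in monocytes, -4.34, 0.66 and -3.79 (the first at 0 CPM) in ER-Hoxb8 progenitors and -1.45, 0.17 and 1.19 at day 4. Both were low in replicates 1 and 3 of the ER-Hoxb8 progenitors. Cmpk2 was at 3.38, 3.37 and 3.62 in BM progenitors and 3.01, 2.97 and 3.82 in monocytes, against -3.19, -0.72 and -3.78 in ER-Hoxb8 progenitors and -1.53, -0.03 and 0.02 at day 4. Marrow cells were thus higher than ER-Hoxb8 cells without overlap, 64.7-fold between the groups labelled progenitors (log2FC -6.01, SE 0.73, adjusted p = 0.000112). As given above, replicates 1 and 2 of the ER-Hoxb8 progenitors carried macrophage markers. Mx1 was at 0.12, 2.04 and 1.21 in BM progenitors, 4.05, 3.88 and 3.96 in monocytes, -0.77, 0.88 and -1.96 in ER-Hoxb8 progenitors and 0.45, 0.27 and 0.02 at day 4. Monocytes were above all others, 7.16-fold over BM progenitors (log2FC 2.84, SE 0.68, adjusted p = 0.0189). Mx2 was at -0.29, 0.71 and 0.77 in BM progenitors, 1.30, 2.53 and 1.12 in monocytes, -4.34, 0.36 and -4.34 (replicates 1 and 3 at 0 CPM) in ER-Hoxb8 progenitors and 0.38, 0.05 and 0.13 at day 4. It was lower in ER-Hoxb8 than in BM progenitors although the groups overlapped (log2FC -3.17, SE 1.06, adjusted p = 0.0472). Ifi44 was at 0.34, -0.12 and 1.05 in BM progenitors, -2.07, -2.85 and -1.99 in monocytes, -4.34, -1.57 and -2.58 (the first at 0 CPM) in ER-Hoxb8 progenitors and -1.72, -2.13 and -2.65 at day 4. BM progenitors were the highest group for it.

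**Figure D5:**
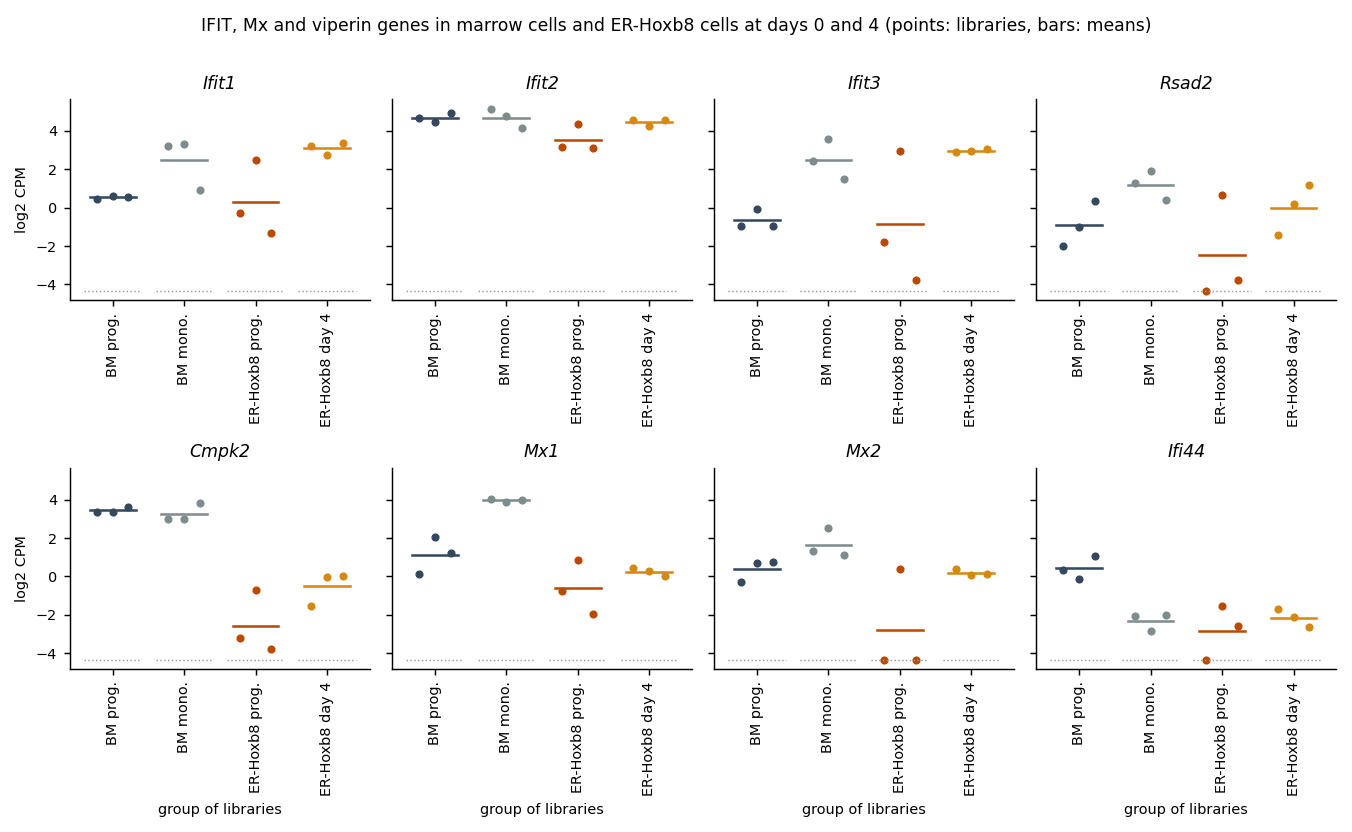
Log2 CPM of the 8 members (y axis) in each library (points) of ER-Hoxb8 cells at days 0 and 4 and of BM progenitors and monocytes (x axis), with bars at group means and a dotted line at the lowest value, -4.34. Cmpk2 is at 3.38, 3.37 and 3.62 in BM progenitors and at -3.19, -0.72 and -3.78 in ER-Hoxb8 progenitors, and replicate 2 of the latter lies near day 4 for several genes.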

How the data were processed

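Messenger RNA of 92 libraries was used, with groups and replicate numbers from the sample labels. The authors deposited CPM on a log2 scale, normalized by TMM, with a small offset. Per the paper's methods and the submitters' processing notes, the authors trimmed reads with fastp, quantified them with kallisto 0.46.0, summed them to genes with tximport and normalized them with edgeR. The table has 29957 rows, of which 1 has no gene name (1 of 29957) and was left out.

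The members and the gene lists (relatives, sensing, ligands, receptor and JAK-STAT, feedback, other interferon-stimulated genes, and 12 marker lists: macrophage, microglia, progenitor, monocyte, neutrophil, lymphocyte and NK, plasmacytoid dendritic cell, neuron, oligodendrocyte, astrocyte, endothelium and border macrophage) were chosen with earlier results of these data known. Genes named are the 8 members, genes of those lists and, for cells from brain, the 5 genes with the highest Pearson correlation to the members' mean. Some results, among them sums and counts over whole lists, are not reported here because they need withheld items. Of the list genes, 3 were paired by an older symbol.

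Libraries with one lowest value formed a set, and each fit took groups of one set. CPM was rebuilt as 2 to the power of the value minus 2 to the power of the lowest value. Genes entered where 3 or more libraries (6 for cells from brain) had CPM above 1, and were tested with limma (version 3.58.1, under R 4.3.3), with group means, eBayes and a trend, two-sided, with Benjamini-Hochberg adjustment over all genes of the fit. The model was tested on simulated data. BMD and ER-Hoxb8 macrophages were fitted alone for their comparison. Depth was estimated from the lowest values with a prior count of 2, and counts were not used here. Intervals are 95%. Within groups, no library was a copy of another: the closest pair, in sgRNA 2 macrophages, differed by 3.43 times counting noise. This check covered pairs within a group and set, so neither pairs across groups nor NTC macrophage replicate 2.

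Alternatives were no filter, log2(CPM + 1), quantile normalization, only the groups compared, a replicate block, each replicate left out, GFPHox or WTHox libraries alone and, chosen after seeing the data, fits and, for the baricitinib and brain sets, correlations without 1 library (Adar1 KO at 0.4 uM replicate 2, microglia replicate 8 or ER-Hoxb8 progenitor replicate 2). Replicate numbers were checked as pairs: deviations of same-numbered libraries correlated above 0.1 in every pair for ER-Hoxb8 day 4 with progenitors (r of 0.23, 0.37 and 0.43), for sgRNA 1 with NTC progenitors (0.35, 0.16 and 0.22) and, in the 2 pairs at hand, for sgRNA 1 with NTC macrophages (0.16 and 0.15). In the baricitinib series the library names run in sets over the doses, and replicate numbers do not follow them throughout. For Adar1 KO, replicate 1 is library A5 at 0 uM and A8 at 0.016 uM. The pairs and the replicate block used the replicate numbers, so there they can join libraries of different sets. Sequence and positions are from RefSeq and the annotation of GRCm38.p6. Tables and plots used Python 3.11.15, numpy 2.4.6, pandas 2.3.3 and matplotlib 3.10.9.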

Additional observations from a re-analysis of the deposited data

Results flagged for a closer look

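Single libraries far from the rest of their group (gap to the nearest library over the whole range, Dixon's limit) were sought in 56 combinations of gene and group with 4 to 10 libraries, and 9 were found. Chance alone gives this in about 1 in 20 groups. Microglia replicate 8 had Ifit2 at 5.36, the highest, and Ifit3 at -1.13, Mx1 at -3.62 and Mx2 at -2.88, the lowest of 9. ER-Hoxb8 MLC replicate 2 had Mx1 at 5.25 and Mx2 at 2.09, and replicate 6 had Rsad2 at 7.83. BMD MLC replicate 3 had Ifit2 at 0.91. In sgRNA 2 macrophages, replicate 2 had Rsad2 at 7.53 in a group that spans little.

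Effects of the same contrast also differed between cell stages and between doses. The log2FC of Adar1 KO over NTC was larger in macrophages than in progenitors by 7.03 for Ifit1, 6.10 for Ifit2, 5.69 for Ifit3, 7.24 for Rsad2, 6.43 for Cmpk2, 4.70 for Mx1, 5.33 for Mx2 and 7.65 for Ifi44. Of these, Ifit1, Ifit2 and Mx1 were tested, while the other five entered the fit only through Adar1 KO macrophages, so their differences are descriptions. At 10 uM baricitinib minus no drug the difference was -5.91 for Ifit1, -6.01 for Ifit2, -6.56 for Ifit3, -6.66 for Rsad2, -5.26 for Cmpk2 (with NTC at 10 uM at 0 CPM, so its size rests on the offset), -4.71 for Mx1, -4.99 for Mx2 and -7.80 for Ifi44. Here Rsad2, Cmpk2 and Ifi44 entered the fit only through Adar1 KO libraries, so theirs are descriptions.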

How the results depend on the processing

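Of 32 comparisons, the number of members called stayed within 1.5 times of the reported count under every alternative run in 21. No log2FC of a called member reversed. Counts that moved are given after the reported count. Over BM progenitors, BM monocytes (1) had 2 without a filter, 4 with quantile normalization, 2 with only the groups compared and 0 to 2 with a replicate left out. ER-Hoxb8 progenitors (2) had 1 with a pseudocount of 1, 1 with quantile normalization, 1 with only the groups compared and 1 to 5 with a replicate left out. Day 4 over ER-Hoxb8 progenitors (0) had 0 to 5 with a replicate left out. BMD MLC had 3 over BMD macrophages (5) and 0 over microglia (3) with a pseudocount of 1. NTC macrophages over progenitors (4) had 2 with a pseudocount of 1 and 1 with only the groups compared. At 0.4 uM, Adar1 KO over NTC (7) had 0 with only the groups compared and 2 to 8 with a replicate left out, and Adar1 KO over no drug (4) had 2 without a filter, 0 with only the groups compared and 0 to 8 with a replicate left out. NTC at 0.4 uM over no drug (0) had 1 with only the groups compared and 0 to 3 without 1 library. NTC at 10 uM (0) had 2 and 0 to 4. The difference at 0.4 uM (0) had 1 with quantile normalization and 0 to 8 with a replicate left out. The causes were not tested, but fits of only the groups compared have fewer libraries, and a pseudocount of 1 shrinks differences of low genes.

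With the replicate block no count moved by over 1.5 times (0, 0 and 8 where the numbers paired; 6 in place of 7 for Adar1 KO over NTC at 0.4 uM). With GFPHox or WTHox libraries alone the counts for ER-Hoxb8 MLC were 8 over macrophages, 8 over microglia and 5 over BMD MLC.

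Depth limits the low values most: in the baricitinib set, at a mean of 13.7 M counts, Cmpk2, Rsad2, Mx2 and Ifi44 reached the lowest value in some libraries, so changes there are bounded by detection. The 6 sets cannot be joined, sgRNA 2 has no control on its scale, and 1 NTC macrophage library could not be used in comparisons. Groups of 3 libraries give little information on spread, which the fits borrow from other groups. Ifit3 shares sequence with Ifit3b. The third dose is given in 2 ways in the labels.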
